A study of Mus musculus with 28 samples.

Results

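The nuclear-encoded subunits of the respiratory chain and of ATP synthase were examined in mouse liver. They were taken as every gene whose symbol starts with Ndufa, Ndufb, Ndufc, Ndufs, Ndufv, Uqcr, Cox4i, Cox5, Cox6, Cox7, Cox8 or Atp5, together with Sdha, Sdhb, Sdhc and Sdhd, and each gene was represented by its probe set of highest mean. These names gave 179 probe sets for 90 of the 18193 genes on the array: 36 genes of complex I, 4 of complex II, 8 of complex III, 17 of complex IV, 17 of complex V and 8 assembly factors of complex I whose symbols start with Ndufaf. Complexes were assigned by the start of the symbol alone, not by the known place of the protein. Ndufa4 and Ndufa4l2 were thus counted with complex I and Cox7a2l with complex IV. Names, not values, decided which genes were members, but these names were chosen with earlier results of these data known. A further 10 probe sets that name several genes were left out. Total liver RNA of 28 female C3H/HeN mice was hybridised to Affymetrix whole-genome GeneChip mouse arrays, 1 mouse per array. Of these mice, 16 were wild type and 12 were deficient in the constitutive androstane receptor (CAR), a nuclear receptor that controls hepatic drug and lipid metabolism, on the same C3H/HeN background. Mice 5 weeks old at arrival were acclimated for 1 week and then received an isocaloric liquid Lieber diet for 1 week ad libitum and 4 weeks at 12 g/day. The diet held water (control), ethanol (EtOH), EtOH with ellagic acid (EtOH + EA) or EtOH with trans-resveratrol (EtOH + RSV), with about 50 mg/kg of polyphenol per day, and each diet group had 4 wild-type or 3 CAR-deficient mice.

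The respiratory chain of the inner mitochondrial membrane passes electrons from NADH (complex I) and succinate (complex II) through coenzyme Q, complex III and cytochrome c to oxygen at complex IV. Complexes I, III and IV pump protons, and complex V, the ATP synthase, lets them flow back to make ATP. The subunits of the catalytic core are surrounded by small accessory subunits. The accessory subunits of the chain are made from nuclear genes and imported, whereas the core is of mixed origin, with part of complex I, cytochrome b of complex III, the catalytic core of complex IV and part of the membrane portion of ATP synthase made from mitochondrial DNA. In liver, ethanol is oxidised with the production of NADH, which this chain reoxidises.

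The values were log2 expression values of the distribution free weighted (DFW) method, made by the authors. Their level differed between the genotypes over the whole array, so the genotypes were treated as summarised apart. DFW sets probe sets with little variation close to a constant and rescales the rest, so a difference of DFW values is not a calibrated fold change, and levels were not compared between genotypes or between probe sets. A probe set was called compressed where its SD over all arrays of the genotype was at most 0.01. In wild-type liver 55 of the 90 members were compressed, 61.1% (95% exact binomial interval 50.3 to 71.2), against 78.8% of all genes. In CAR-deficient liver 27 members were compressed, 30.0% (20.8 to 40.6), against 71.5% of all genes. The intervals cover counting error over genes only, and genes are not independent. After quantile normalization of the deposited values the shares were 30.0% of members and 62.8% of all genes in wild type, and 11.1% and 63.6% in CAR-deficient liver. By genotype, 26 members were compressed in both, 34 in neither, 29 in wild type only and 1, Uqcrh, in CAR-deficient liver only. Over all 179 member probe sets the shares were 70.9% and 41.3%.

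The limit of 0.01 fell in a clear gap of the SD values in CAR-deficient liver, whereas in wild type values lay close to it on both sides. In wild type Atp5g3 (0.00432) and Ndufs7 (0.00864) lay just inside and Uqcrh (0.0163) and Ndufa12 (0.0267) just outside. In CAR-deficient liver Ndufa9 (0.00105) and Ndufb6 (0.0021) lay just inside and Cox5a (0.0362) and Ndufa4 (0.0496) just outside. The largest SD values in wild type were those of the assembly factors Ndufaf4 (0.24), Ndufaf3 (0.144) and Ndufaf7 (0.121), of Atp5mpl (0.108) and of Ndufb3 (0.0988). In CAR-deficient liver they were those of Cox7a1 (0.409), Cox6b2 (0.391), Ndufaf4 (0.333), Ndufaf1 (0.265) and Atp5k (0.243). Among 18 listed subunits that belong to the core of a complex or, in complex IV, bind to its mitochondrially encoded core, 13 were compressed in wild type (72.2%, against 78.8% of all genes): Ndufs7, Ndufv1, Ndufv2, Sdha, Sdhc, Sdhd, Uqcrc1, Uqcrc2, Uqcrfs1, Cox4i1, Cox5a, Atp5a1 and Atp5b. For these genes the wild-type arrays give hardly any spread to compare. The 5 others, Ndufs1, Ndufs3, Ndufs8, Sdhb and Cox5b, were uncompressed. In CAR-deficient liver 3 of the 18 were compressed (16.7%).

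**Figure D1:**
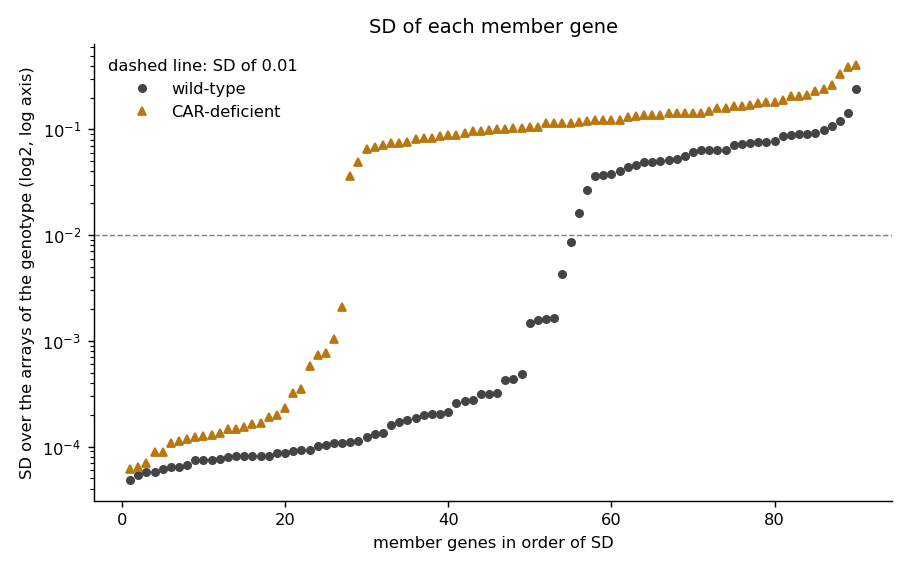
SD of the DFW values (log2, log axis) of each of the 90 member genes over the 16 wild-type arrays (circles) and the 12 CAR-deficient arrays (triangles), in rising order within each genotype, with a dashed line at 0.01. Most values fall into a low and a high set, without a clear gap at the line in wild type. Under the line are 55 wild-type and 27 CAR-deficient genes.

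Of the liver samples as a whole, the single probe set of Nr1i3, the gene of CAR, read 8.96 to 10.1 in wild type and 8.55 to 9.49 in CAR-deficient liver, where it still exceeded 82.8% or more of the probe sets of its array. Where it lies relative to the deleted part was not established, so it does not check the genotype. Hepatocyte markers were high on every array, with a mean of 13.98 to 14.06 over 5 markers in wild type and 16.95 to 17.74 in CAR-deficient liver. The latter mean included Alb at 27.23, while the other 4 markers averaged 14.05 to 14.99. The 6 striated muscle markers stayed at 6.45 and 6.58 in the 2 genotypes. No 2 arrays were identical. Among CAR-deficient arrays, EtOH replicate 1 and EtOH + RSV replicate 3 had the lowest median correlation with the other arrays, 0.983 and 0.989.

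The promoters of the members called lower on EtOH are shown first because these members recur through the results below. Of the 90 members, 74 matched a RefSeq gene (GRCm38.p6) with a window of 250 bases before to 50 bases after the annotated start. The stretch of 150 bases directly before the start is given 5′ to 3′ on the strand of the gene, the minus strand in each case, for Atp5k (chr5:108434400-108434549), Uqcr11 (chr10:80406822-80406971), Cox7a2 (chr9:79759854-79760003) and Ndufs3 (chr2:90904722-90904871). Capitals mark a match to a searched motif, and Uqcrq, the remaining member of this set, was not matched.
Atp5k: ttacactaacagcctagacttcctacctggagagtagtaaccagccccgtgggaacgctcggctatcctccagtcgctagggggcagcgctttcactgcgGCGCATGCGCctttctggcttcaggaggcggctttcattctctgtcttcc
Uqcr11: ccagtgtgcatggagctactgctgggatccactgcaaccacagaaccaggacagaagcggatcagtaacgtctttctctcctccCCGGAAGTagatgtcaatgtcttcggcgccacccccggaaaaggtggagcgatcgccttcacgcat
Cox7a2: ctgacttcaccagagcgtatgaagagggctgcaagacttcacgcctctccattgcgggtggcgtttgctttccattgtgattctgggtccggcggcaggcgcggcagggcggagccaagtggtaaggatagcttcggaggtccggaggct
Ndufs3: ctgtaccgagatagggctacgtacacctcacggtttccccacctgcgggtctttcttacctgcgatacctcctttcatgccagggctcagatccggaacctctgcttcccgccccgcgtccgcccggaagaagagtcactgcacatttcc
The capitals in Atp5k are 2 overlapping matches, 1 on each strand, to GCGCANGCG, the motif of nuclear respiratory factor 1, and those in Uqcr11 a match to CCGGAAGT, the motif of ETS factors such as GABPA. The Cox7a2 and Ndufs3 stretches held no match to the 3 motifs searched on both strands, the third being AAGATGGC of YY1. Outside the printed stretch, the full window of Ndufs3 held a match to CCGGAAGT and that of Uqcr11 a match to GCGCANGCG, while the Cox7a2 window held none.

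In the full windows, GCGCANGCG was present for 20 of the 74 members (27.0%) and 7.03% of the 27025 genes with a window. In this paragraph all genes means these 27025, of which 14367 were on the array. AAGATGGC was present for 10 members (13.5%) and 3.19% of all genes, and CCGGAAGT for 5 members (6.76%) and 4.31% of all genes. At least 1 of the 3 was present for 33 members (44.6%) and 13.2% of all genes. Among members with a window the count was 8 of 14 for those called lower in at least 1 wild-type comparison with the control diet, 6 of 16 for the other uncompressed members and 19 of 44 for compressed ones. A match of letters is a description of the window and does not show that a factor binds there.

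The first comparison asked how EtOH alone changed these genes in wild-type liver. At an adjusted p under 0.05 (limma, Benjamini-Hochberg over all probe sets), 1 member was higher and 6 were lower on EtOH, while over all genes 2.99% were higher and 4.05% lower. Of the 35 uncompressed members 5 fell, 14.3%, against 11.7% of all uncompressed genes: Atp5k of complex V, Uqcr11 and Uqcrq of complex III, Cox7a2 of complex IV and Ndufs3 of complex I. The share that fell was thus near the background, and none of the 35 rose, against 6.69% of all uncompressed genes. A difference below 0 was found for 31 of the 35 (88.6%), against 59.1% of all uncompressed genes, with a median difference of -0.0635 against -0.0371. The 2 other calls, Ndufb8 and Cox6b2, were compressed.

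Atp5k encodes subunit e in the membrane part of ATP synthase. Its DFW values were 11.35, 11.39, 11.44 and 11.40 on the control diet and 11.23, 11.14, 11.27 and 11.22 on EtOH. The groups did not overlap, and the lowest control array was above the highest EtOH array. The difference was -0.177 ± 0.0308 (SE, n = 4 arrays per group, adjusted p = 0.008, limma).

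Uqcr11 and Uqcrq encode small accessory subunits of complex III. Uqcr11 read 12.00, 12.03, 12.09 and 12.06 on the control diet and 11.90, 11.82, 11.98 and 11.87 on EtOH. Uqcrq read 12.38, 12.38, 12.42 and 12.43 on the control diet and 12.27, 12.24, 12.35 and 12.21 on EtOH. In both genes every EtOH array lay below every control array, by a narrow margin for EtOH replicate 4. The differences were -0.152 ± 0.0314 for Uqcr11 and -0.138 ± 0.0276 for Uqcrq (SE, adjusted p = 0.017 and 0.015, limma).

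Cox7a2 encodes the form of subunit 7a found in liver, and Ndufs3 a core subunit of the arm of complex I where NADH is oxidised. Cox7a2 read 12.75, 12.77, 12.79 and 12.82 on the control diet and 12.70, 12.71, 12.73 and 12.72 on EtOH. Ndufs3 read 11.40, 11.48, 11.46 and 11.48 on the control diet and 11.33, 11.37, 11.38 and 11.37 on EtOH. Neither gene's groups overlapped, and control replicate 1 of Ndufs3 was the control array nearest to the EtOH arrays. The differences were small, -0.0675 ± 0.0177 for Cox7a2 and -0.0933 ± 0.0236 for Ndufs3 (SE, adjusted p = 0.045 and 0.04, limma).

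The calls on EtOH depended on the spread being estimated over all 4 wild-type diets. With only the control and EtOH arrays in the fit no member passed, the lowest adjusted p being 0.0502 (Cox6b2, with 19 members at an unadjusted p under 0.05). After quantile normalization of the deposited values 9 members were higher and 12 lower, and 11 of those 12 but none of the 9 were among the 35 uncompressed members. The count of all members called, 7 with every array, fell to 2 without control replicate 3, to 3 without control replicate 2 or 4 or EtOH replicate 3, and to 4 without EtOH replicate 1, 4 or 5, and rose to 10, all lower, without control replicate 1. Cox7a2 and Ndufs3 no longer passed whichever of these arrays other than control replicate 1 was left out, and Uqcr11 did not pass without control replicate 3.

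**Figure D2:**
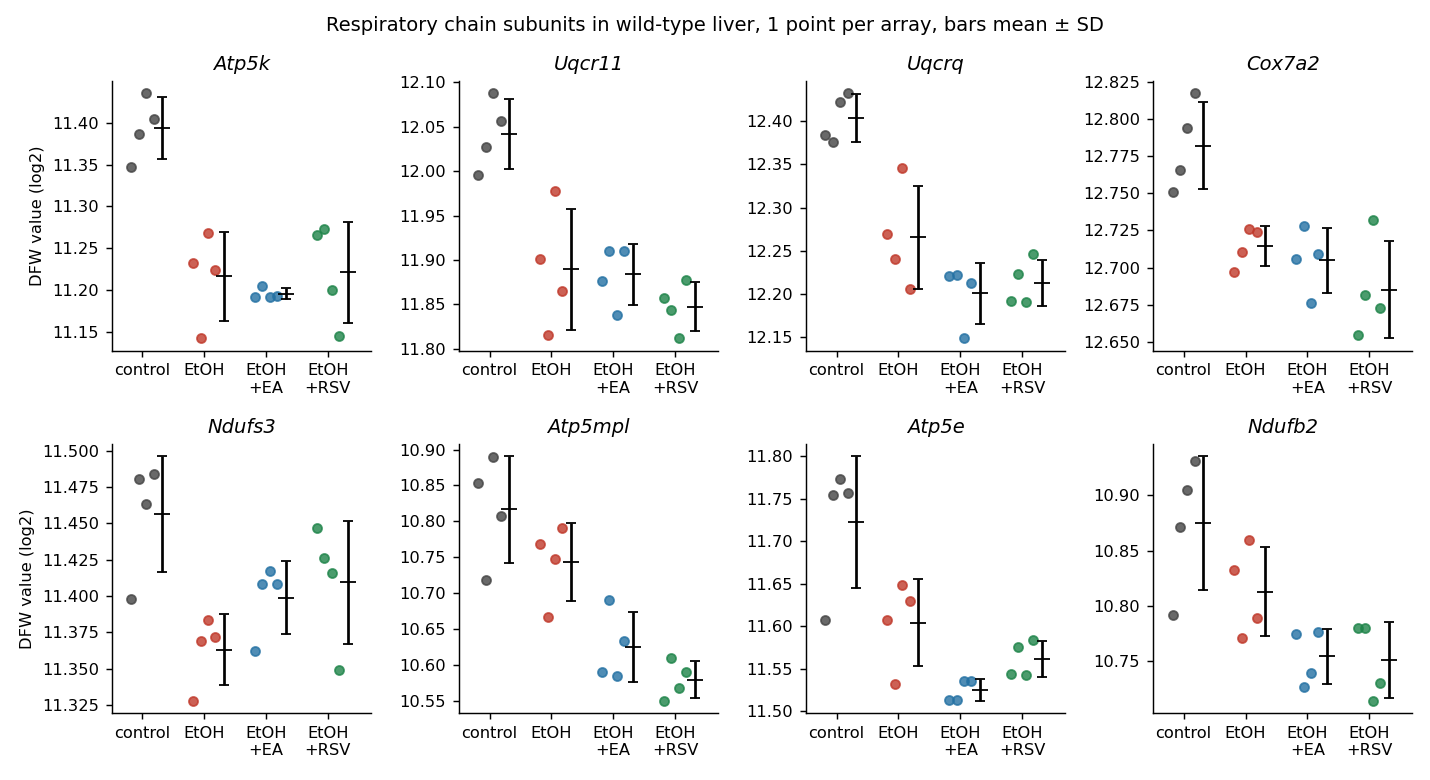
DFW values (log2) of 8 members on the 16 wild-type arrays by diet, 1 point per array, with the mean and SD of each diet beside the points and a separate axis range for each gene. Atp5k, Uqcr11, Uqcrq, Cox7a2 and Ndufs3 were lower on all 4 EtOH arrays than on any control array, while Atp5mpl, Atp5e and Ndufb2 overlapped between control and EtOH and did not overlap between control and either polyphenol diet.

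The EtOH + EA and EtOH + RSV diets were compared with the control diet in the same fit. These comparisons use the same 4 control arrays as the EtOH comparison, so the 3 are given side by side and are not independent. On EtOH + EA 2 members were higher and 19 lower, with 8.29% and 9.67% of all genes. On EtOH + RSV 5 were higher and 21 lower, with 11.2% and 12.6% of all genes. Of the 35 uncompressed members none rose on either diet (background 15.2% and 14.3%), 14 fell on EtOH + EA (40.0%, background 27.8%) and 15 on EtOH + RSV (42.9%, background 31.0%). The median differences were -0.0857 and -0.0737, against -0.0525 and -0.0641 for all uncompressed genes, and 31 and 28 of the 35 lay below 0 (88.6% and 80.0%), against 58.1% and 60.2% of all uncompressed genes. The members were not independent of each other in this. Within diets, the median correlation between 2 uncompressed members was 0.349 over 595 pairs on the 16 arrays, against 0.0235 between 2 uncompressed genes of any kind, so a count of signs is not a count of separate observations. All of the higher calls were compressed. After quantile normalization the counts were 14 higher and 21 lower on EtOH + EA and 15 higher and 26 lower on EtOH + RSV, with 1 of the higher calls in each among the 35 uncompressed members.

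The counts called are given by complex, with few uncompressed members in each. Over all uncompressed genes 11.7%, 27.8% and 31.0% fell on EtOH, EtOH + EA and EtOH + RSV. In complex V 5 of 6 fell on each polyphenol diet, with median differences of -0.163 on EtOH + EA and -0.147 on EtOH + RSV. In complex III 4 of 5 fell on each, with medians of -0.0933 and -0.0642, and on EtOH alone 2 of 5 fell in complex III and 1 of 6 in complex V. In complex IV 2 of 5 fell on EtOH + EA and 3 of 5 on EtOH + RSV. In complex I 3 of 14 and 2 of 14 fell (21.4% and 14.3%), with medians of -0.0566 and -0.0369. These shares of complex I lay below those of all uncompressed genes. No test compared the complexes with each other. Complex II had 1 uncompressed member, the iron-sulphur subunit Sdhb, with differences of -0.0792, -0.0138 and -0.0149 on EtOH, EtOH + EA and EtOH + RSV, none of which passed (adjusted p = 0.42 or more, limma).

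**Figure D3:**
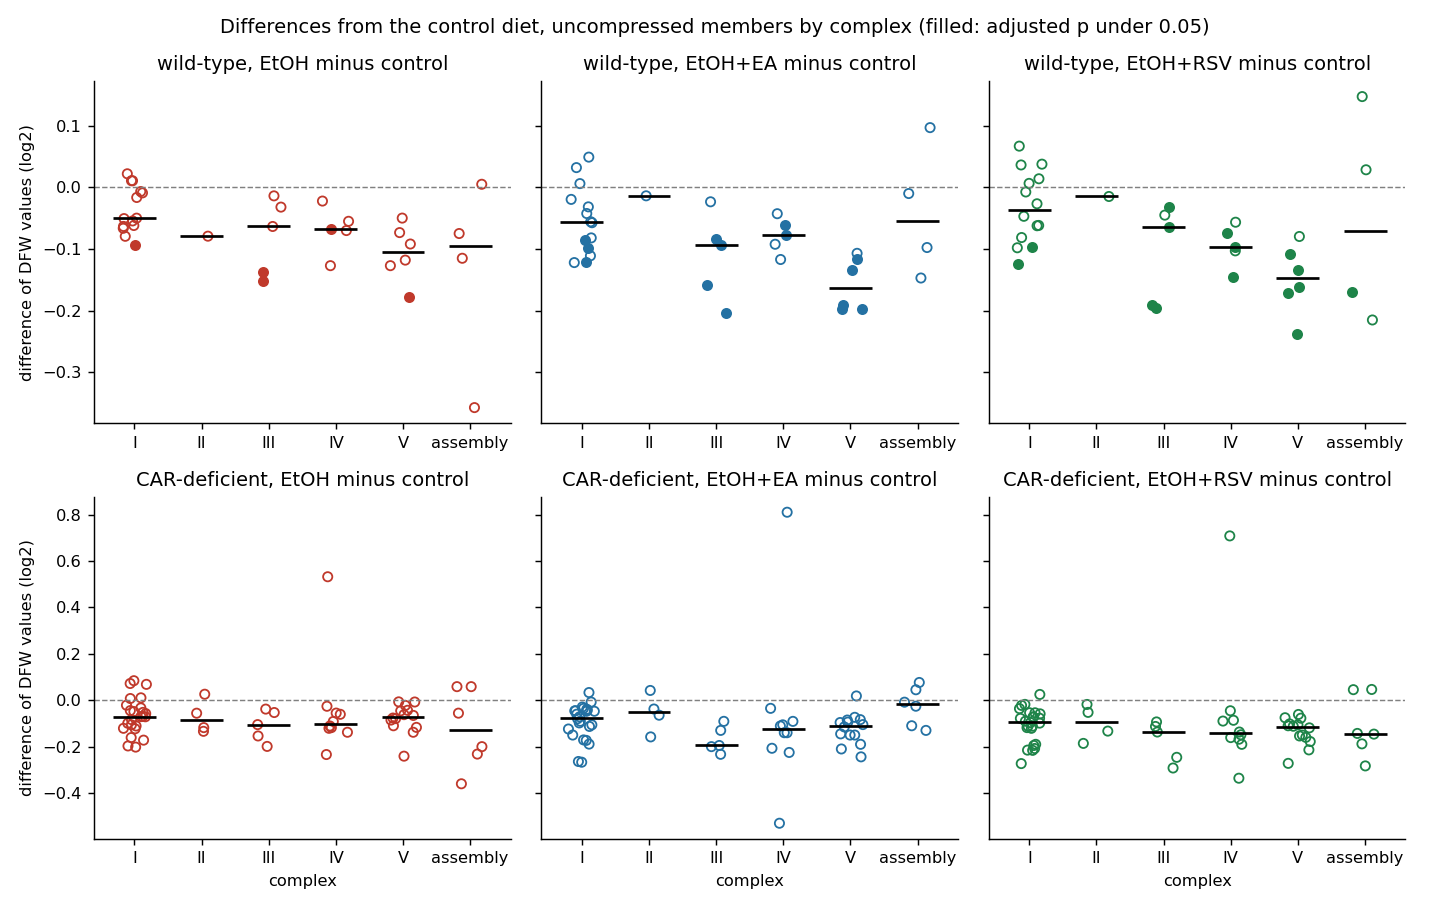
Differences of mean DFW values (log2) from the control diet for each uncompressed member, by complex, in wild-type (35 members, upper row) and CAR-deficient liver (63 members, lower row), with filled points where the adjusted p was under 0.05 and horizontal lines at the median of each complex. The vertical scale differs between the rows. Most points lie below 0 in all 6 panels, filled points occur in wild type alone, and the high open point of complex IV in CAR-deficient liver is Cox6b2.

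In complex V, Atp5k read 11.19, 11.21, 11.19 and 11.19 on EtOH + EA and 11.27, 11.27, 11.20 and 11.15 on EtOH + RSV, below all control arrays. Its differences from control were -0.198 ± 0.0308 and -0.172 ± 0.0308 (SE, adjusted p = 0.0015 and 0.0031, limma). Both other probe sets of Atp5k moved the same way, with differences of -0.168 and -0.154 on EtOH + EA (adjusted p = 0.03 and 0.031). On EtOH alone they gave -0.128 and -0.122 and did not pass (adjusted p = 0.13 and 0.12), so the call there rested on the probe set of highest mean.

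Atp5mpl encodes a small proteolipid of the membrane part of ATP synthase. It read 10.85, 10.72, 10.89 and 10.81 on the control diet, 10.77, 10.67, 10.75 and 10.79 on EtOH, 10.59, 10.69, 10.59 and 10.63 on EtOH + EA and 10.55, 10.61, 10.57 and 10.59 on EtOH + RSV. The EtOH arrays overlapped the controls (-0.0734 ± 0.0372, adjusted p = 0.28), whereas both polyphenol groups lay below every control array. The differences from control were -0.191 on EtOH + EA (adjusted p = 0.0051) and -0.237 on EtOH + RSV (adjusted p = 0.0016), each ± 0.0372. From EtOH to EtOH + RSV the difference was -0.163 ± 0.0372 without overlap, which did not pass (adjusted p = 0.081), and from EtOH to EtOH + EA it was -0.118 (adjusted p = 0.13).

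Atp5e encodes the epsilon subunit of the central stalk and Atp5j2 subunit f of the membrane part. Atp5e read 11.61, 11.75, 11.77 and 11.76 on the control diet, 11.61, 11.53, 11.65 and 11.63 on EtOH, 11.51, 11.51, 11.54 and 11.54 on EtOH + EA and 11.54, 11.58, 11.54 and 11.58 on EtOH + RSV. Control replicate 1 stood apart from the other controls and within the EtOH range. Atp5e fell on both polyphenol diets, with differences of -0.198 and -0.161 (± 0.0334, adjusted p = 0.0023 and 0.0065), while the difference of -0.118 on EtOH did not pass (adjusted p = 0.059). Atp5j2 read 12.46 to 12.58 on the control diet, 12.35 to 12.44 on EtOH + EA and 12.34 to 12.45 on EtOH + RSV, with a difference of -0.134 ± 0.0354 on each (adjusted p = 0.025 and 0.021). Atp5g2, which encodes the rotating c subunit, was -0.116 and -0.108 (adjusted p = 0.024 and 0.027).

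In complex III, Uqcrq read 12.22, 12.22, 12.15 and 12.21 on EtOH + EA and 12.19, 12.22, 12.19 and 12.25 on EtOH + RSV. All 8 arrays lay below the lowest control of 12.38, with differences of -0.203 and -0.191 (± 0.0276, adjusted p = 0.00071 and 0.001). Uqcr11 was -0.158 and -0.195 (± 0.0314, adjusted p = 0.0057 and 0.0018). Uqcr10, another small accessory subunit, read 11.29 to 11.36 on the control diet, 11.21 to 11.27 on EtOH + EA and 11.23 to 11.28 on EtOH + RSV, and its differences were -0.0835 and -0.0642 (± 0.0178, adjusted p = 0.0085 and 0.025). Uqcrb, which lies near the coenzyme Q site, passed on EtOH + EA (-0.0933, adjusted p = 0.045) and not on EtOH + RSV (-0.0451, adjusted p = 0.28), a contrast that was itself not called between the 2 diets. Uqcrh, the hinge protein that contacts cytochrome c1, passed on EtOH + RSV with a difference of only -0.0322 (adjusted p = 0.018).

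In complex IV, Cox7a2 was -0.0771 on EtOH + EA and -0.0967 on EtOH + RSV (± 0.0177, adjusted p = 0.012 and 0.0035). Cox6b1, a subunit on the side of the membrane that meets cytochrome c, was -0.0613 and -0.0737 (± 0.0165, adjusted p = 0.027 and 0.0097). Cox6c, an accessory subunit, read 12.74 to 12.87 on the control diet and 12.59 to 12.70 on EtOH + RSV, a difference of -0.146 ± 0.0366 (adjusted p = 0.016), and on EtOH + EA the difference of -0.117 did not pass (adjusted p = 0.051). Cox8a (-0.0923 and -0.103) and Cox5b (-0.0428 and -0.0566) did not pass on either diet.

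In complex I, Ndufb2 read 10.79, 10.87, 10.91 and 10.93 on the control diet, 10.77, 10.73, 10.74 and 10.78 on EtOH + EA and 10.78, 10.78, 10.71 and 10.73 on EtOH + RSV. The lowest control was barely above the highest of these 8 arrays, and the differences were -0.121 and -0.124 (± 0.0293, adjusted p = 0.017 and 0.013). Ndufa1 was -0.0857 and -0.0971 (± 0.0236, adjusted p = 0.03 and 0.014), and Ndufa6 passed on EtOH + EA. All 3 are accessory subunits. Ndufs3, lower on EtOH alone, was -0.0574 and -0.047 on the polyphenol diets with overlapping groups (adjusted p = 0.13 and 0.18). Ndufs1, the largest iron-sulphur subunit, had differences above 0 in all 3 comparisons (0.0107, 0.0489 and 0.0667), and Ndufs8 stayed between -0.0196 and 0.0106, and no comparison of either passed.

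Among the assembly factors, Ndufaf8 read 10.03, 10.01, 10.06 and 10.04 on the control diet and 9.96, 9.79, 9.95 and 9.76 on EtOH + RSV without overlap, a difference of -0.17 ± 0.0498 (adjusted p = 0.032). This call was lost in 7 of 12 alternatives, among them leaving out any 1 of the 4 control arrays and the fit of the 2 groups alone. Ndufaf4, the member of largest wild-type SD, read 8.83 to 9.07 on the control diet, 8.22 to 8.84 on EtOH, 8.81 to 9.02 on EtOH + EA and 8.34 to 9.0 on EtOH + RSV. These ranges overlapped, and no comparison of Ndufaf4 passed (EtOH against control -0.357 ± 0.143, adjusted p = 0.17, limma). The rank product ranks differences over all pairs of arrays and does not use each gene's own spread. It called Ndufaf4 lower on EtOH at a false discovery rate of 0.00891. For a member of such large SD with overlapping groups, that rate does not outweigh the limma result.

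Most genes here had a single uncompressed probe set. The 17 further uncompressed probe sets of 14 member genes were below 0 in 13 cases in each of the 3 comparisons with control, and 1, 6 and 8 of them fell on EtOH, EtOH + EA and EtOH + RSV. The exception that rose was a weak probe set of Atp5c1 at a mean of 7.05, with differences of 0.378 and 0.296 on EtOH + EA and EtOH + RSV (adjusted p = 0.0017 and 0.0062), whereas the representative probe set of this gene, at 12.67, was compressed.

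Without control replicate 3 or 4 the members called fell from 21 to 10 in each case on EtOH + EA, and from 26 to 15 and 16 on EtOH + RSV, while without control replicate 1 they rose to 26 and 27. Without EtOH + EA replicate 3 or 2 the count on EtOH + EA was 12 or 14. Of the calls without overlap, those of Atp5j2, Cox6b1, Ndufa1 and Uqcrb on EtOH + EA and those of Atp5j2, Ndufaf8 and Uqcr10 on EtOH + RSV were lost without control replicate 3 and also without control replicate 4, and that of Uqcrh on EtOH + RSV without control replicate 3. The same calls, and that of Cox6c on EtOH + RSV, were also lost without at least 1 array of the polyphenol diet, and for Uqcrb without any 1 of the 4 EtOH + EA arrays. The calls of Atp5k, Atp5mpl, Atp5e, Uqcrq and Uqcr11 on both polyphenol diets passed without each array in turn. With only the 2 groups compared in the fit, 15 members were called on EtOH + EA, 9 of them uncompressed, and 13 on EtOH + RSV, 10 of them uncompressed. With the replicate number as a block, 10 of the 14 uncompressed members remained called on EtOH + EA, while Atp5j2, Cox6b1, Ndufa6 and Uqcrb did not pass (adjusted p = 0.052, 0.0506, 0.0618 and 0.0572, limma).

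Control replicate 1 was the control array on which the members stood nearest to the ethanol arrays. The mean deviation of the 35 uncompressed members from their own means was 0.0123 on it and 0.0571, 0.0756 and 0.0804 on the other control arrays. On the 12 ethanol-fed wild-type arrays it ranged from -0.0633 to 0.0361, so EtOH replicate 5 (0.0361) and EtOH + RSV replicate 1 (0.02) lay above control replicate 1. The same mean over all 3857 uncompressed genes ran from 0.00541 to 0.0433 on the controls and from -0.0388 to 0.0032 on the other arrays.

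**Figure D4:**
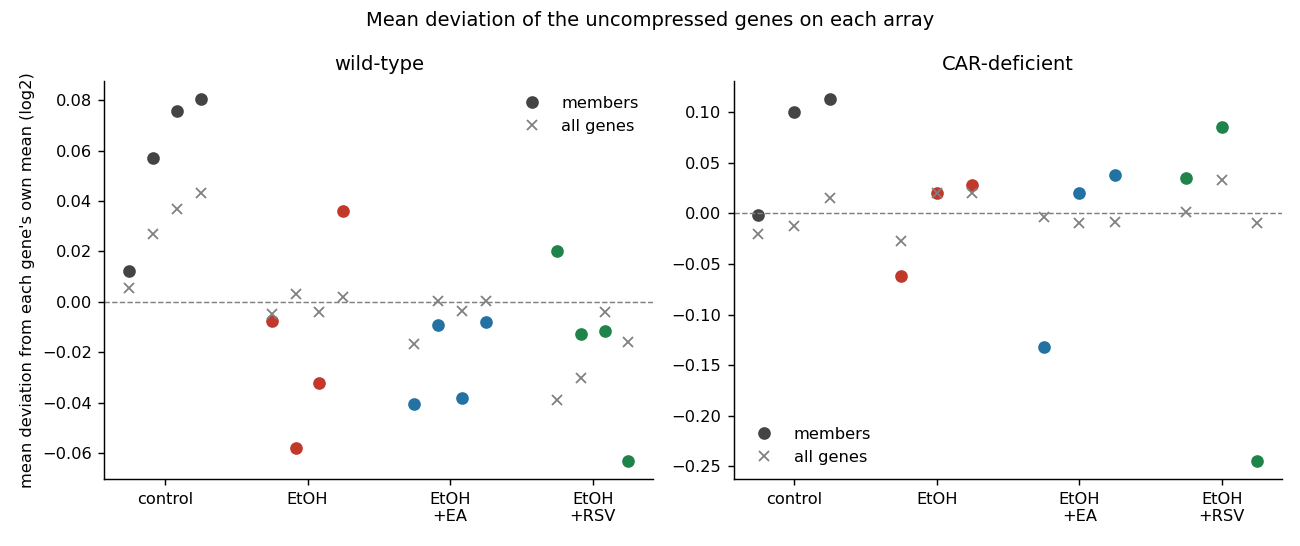
Mean deviation of the uncompressed members (filled circles; 35 in wild type, 63 in CAR-deficient liver) and of all uncompressed genes (grey crosses) from each gene's own mean on each array (log2), by diet. In wild type the controls other than replicate 1 stand above the ethanol arrays. In CAR-deficient liver EtOH + RSV replicate 3 stands far below the others at -0.245, with EtOH + EA replicate 1 next at -0.132.

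Markers of other liver cells also moved with the diets. Of the 7 Kupffer cell markers, genes of the resident macrophages of the liver, 5 were uncompressed in wild type and all 5 (C1qa, Cd5l, Clec4f, Adgre1 and Vsig4) fell on EtOH, EtOH + EA and EtOH + RSV. The mean over the 7 markers was 8.59 to 8.70 on the control arrays and 8.35 to 8.52 on the ethanol arrays, without overlap. The mean of the 6 stellate cell markers was 9.17 to 9.24 on the control arrays, 9.21 to 9.30 on EtOH, 9.27 to 9.32 on EtOH + EA and 9.23 to 9.35 on EtOH + RSV, and 2 uncompressed markers rose on each polyphenol diet. The mean of the 6 sinusoidal endothelial markers was 8.98 to 9.19 on the control arrays, 9.03 to 9.07 on EtOH, 9.16 to 9.27 on EtOH + EA and 9.07 to 9.12 on EtOH + RSV, so that EtOH + EA lay above EtOH without overlap. Of its 4 uncompressed markers Stab2 fell on EtOH and EtOH + RSV (-0.447 and -0.385, adjusted p = 0.02 and 0.015), and Clec4g and Lyve1 rose on EtOH + EA (0.17 and 0.715, adjusted p = 0.015 and 0.014). Of the 3 uncompressed hepatocyte markers, Apoa1 fell on EtOH and EtOH + EA (-0.0788 and -0.0741, adjusted p = 0.035 and 0.023), Fgb fell on EtOH + EA and EtOH + RSV (-0.317 and -0.301, adjusted p = 0.0019 and 0.0025) and Cps1 rose on EtOH + RSV (0.298, adjusted p = 0.0017). The part of these markers in the differences of the members was not tested. In such bulk samples fewer cells of a type cannot be told apart from less RNA per cell.

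Whether a polyphenol changed the members beyond EtOH was asked by comparing each polyphenol diet with EtOH. On EtOH + EA 1 member, the compressed Cox7c, was higher and none was lower, with 1.58% and 1.64% of all genes. An unadjusted p under 0.05 was found for 14.4% of members and 18.4% of all genes. On EtOH + RSV none was called, with 0.242% of all genes higher and 0.313% lower, and 12 members (13.3%) had an unadjusted p under 0.05, against 17.4% of all genes. The rank product called Ndufaf4 higher on EtOH + EA and Atp5mpl lower on EtOH + RSV. The medians over the 35 uncompressed members were -0.0209 on EtOH + EA and -0.0183 on EtOH + RSV, against -0.0168 and -0.0343 for all uncompressed genes. Atp5k is an example, with -0.0209 and 0.00454 (± 0.0308), so neither polyphenol diet returned it towards the control value by more than its error. For the 4 others that fell on EtOH the differences from EtOH ran from -0.0646 (Uqcrq, EtOH + EA) to 0.0462 (Ndufs3, EtOH + RSV).

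The 2 polyphenols, given at the same approximate intake, were compared directly. Ellagic acid is a fused dilactone of gallic acid units and trans-resveratrol a stilbene. No member was called between them, with 0.0165% of all genes called. An unadjusted p under 0.05 was found for 2 members (2.22%) and 10.2% of all genes. The rank product called Ndufaf4 higher on EtOH + EA than on EtOH + RSV. Over the 35 uncompressed members EtOH + EA minus EtOH + RSV ran from -0.126 to 0.205 with a median of -0.00781. Atp5mpl differed by 0.0451 (95% interval -0.036 to 0.126), Uqcrq by -0.0121 (-0.0722 to 0.048) and Atp5k by -0.0254 (-0.0926 to 0.0417). These intervals join the moderated SE of limma to 12 residual degrees of freedom. They therefore do not correspond exactly to the limma p-values. That no member passed does not show that both compounds acted alike.

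In CAR-deficient liver no member was called in any of the 6 comparisons. The shares of all genes called were 0.434% for EtOH, 0.242% for EtOH + EA and 0.0715% for EtOH + RSV against control, and 0.0% for both polyphenol diets against EtOH and for the polyphenol diets against each other. With 3 arrays per group, 3, 7 and 8 members had an unadjusted p under 0.05 on EtOH, EtOH + EA and EtOH + RSV against control. These shares of 3.33%, 7.78% and 8.89% lay below those of all genes, 13.3%, 12.6% and 11.3%. None had one in the other 3 comparisons. The rank product, which does not use each gene's own spread, called Cox6b2 higher in each comparison with control and Cox7a1 lower on EtOH + EA. These members had the largest SD values in CAR-deficient liver (0.391 and 0.409).

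Most differences of the 63 uncompressed members from control lay below 0. A difference below 0 was found for 54 on EtOH, 57 on EtOH + EA and 59 on EtOH + RSV against control (85.7%, 90.5% and 93.7%), against 47.1%, 51.5% and 48.7% of all uncompressed genes. The medians were -0.0713, -0.0978 and -0.112, against 0.0121, -0.00669 and 0.00558 for all uncompressed genes. The members called lower in wild type were below 0 here in 5 of 5 cases on EtOH, 14 of 14 on EtOH + EA and 14 of 14 uncompressed cases on EtOH + RSV. The 3 comparisons share the same 3 control arrays and are again not independent. Nor are the members, whose median correlation within diets was 0.697 over 1953 pairs on the 12 arrays, against 0.0165 between uncompressed genes of any kind.

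Markers of other liver cells moved on the same arrays. The mean of the 7 Kupffer cell markers was 9.10 to 9.31 on the CAR-deficient control arrays and 8.77 to 9.06 on the 9 ethanol-fed arrays, without overlap. The mean of the 6 stellate cell markers was 9.54 to 9.77 on the control diet, 9.56 to 10.02 on EtOH, 9.86 to 10.02 on EtOH + EA and 9.94 to 9.98 on EtOH + RSV, and that of the 6 sinusoidal endothelial markers was 9.52 to 9.65, 9.38 to 9.60, 9.60 to 9.66 and 9.60 to 9.80. No marker of these 3 lists was called in CAR-deficient liver. Their part in the shift of the members was not tested.

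The shift was uneven among arrays. On EtOH + RSV replicate 3, 61 of the 63 members were below their own mean, and the mean deviation was -0.245, while replicates 1 and 2 read 0.035 and 0.0852. Without that array the EtOH + RSV median against control was -0.024 and 43 of 63 members lay below 0. EtOH + EA replicate 1 had 58 members below their own mean and a mean deviation of -0.132. Without it the EtOH + EA median was -0.0684 with 48 members below 0. EtOH replicate 1 stood at -0.0614, and without it the EtOH median was -0.0541 with 50 below 0. All uncompressed genes on these 3 arrays averaged -0.00904, -0.00372 and -0.0269. Control replicate 1, at -0.00189, was again the lowest control, and without it the medians were -0.111, -0.141 and -0.143.

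Cox7a2 was lower on all ethanol-fed CAR-deficient arrays than on the controls, as was Uqcr11, whereas Cox6b2 was higher. Cox7a2 read 13.41, 13.45 and 13.48 on the control diet, 13.21, 13.23 and 13.20 on EtOH, 13.11, 13.26 and 13.30 on EtOH + EA and 13.25, 13.35 and 13.17 on EtOH + RSV. The highest ethanol-fed array, at 13.35, was close to the lowest control, at 13.41, and the differences of -0.234, -0.225 and -0.19 (± 0.0543) did not pass (adjusted p = 0.14, 0.16 and 0.26, limma).

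Uqcr11 behaved likewise, with 12.73, 12.80 and 12.80 on the control diet, 12.45, 12.60 and 12.68 on EtOH, 12.48, 12.61 and 12.63 on EtOH + EA and 12.65, 12.63 and 12.31 on EtOH + RSV. No ethanol-fed array reached the controls, and the differences were -0.199, -0.2 and -0.246 (± 0.0963, adjusted p = 0.45, 0.48 and 0.42). Atp5k overlapped between groups, with 11.83, 12.09 and 12.12 on the control diet and 11.56, 11.79 and 11.97 on EtOH. Its lowest value was 11.33, on EtOH + RSV replicate 3.

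**Figure D5:**
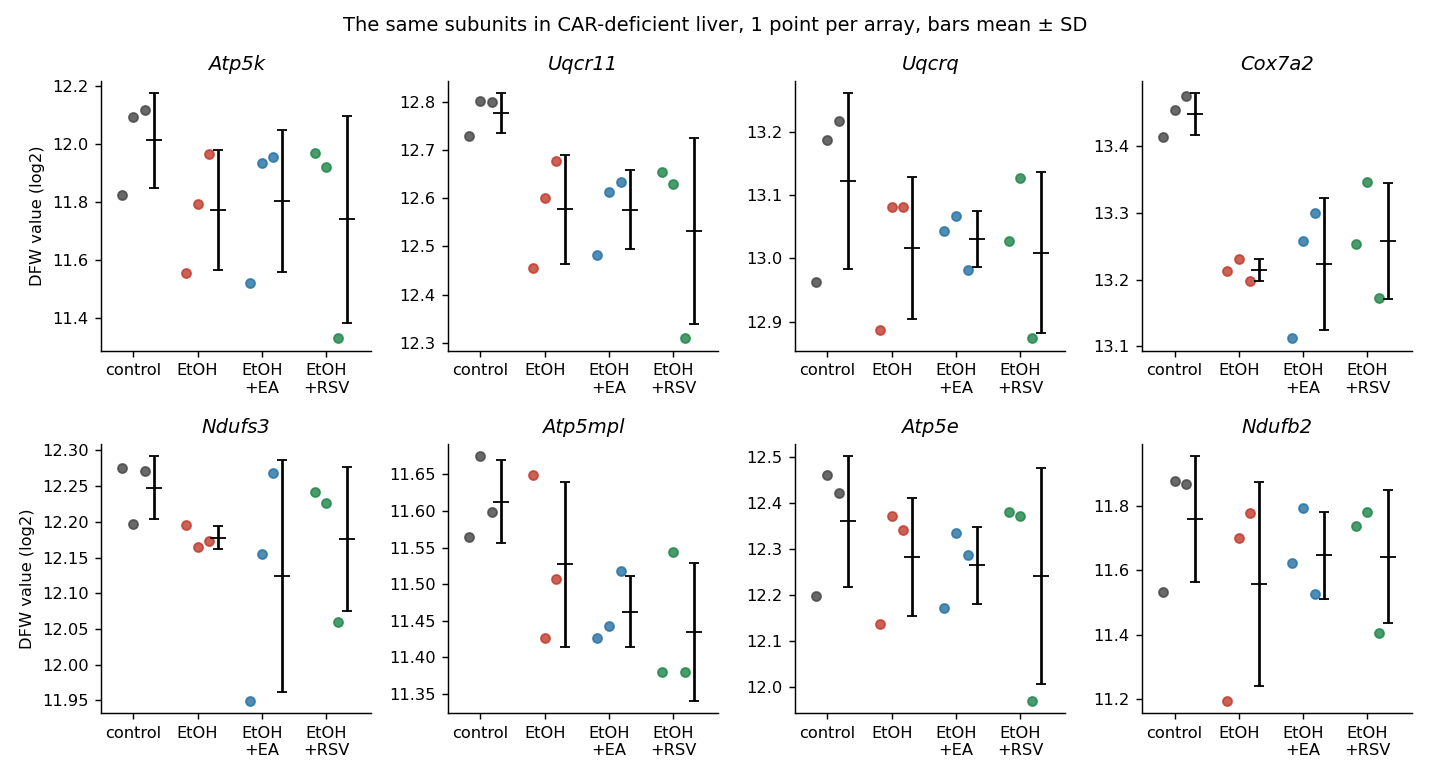
DFW values (log2) of the same 8 members on the 12 CAR-deficient arrays by diet, 1 point per array, with the mean and SD of each diet beside the points and a separate axis range for each gene. Cox7a2 and Uqcr11 were lower on every ethanol-fed array than on any control array, and the other 6 overlapped in at least 1 comparison, with low single arrays in several ethanol groups.

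Subunit forms best known from other tissues were mostly at low values and compressed. Cox4i2, Cox6a2, Cox7b2, Cox8b, Cox8c and Ndufa4l2 were compressed in both genotypes, so the diets could hardly be compared there. Cox4i2, Cox6a2, Cox8b and Cox8c were among the 5 compressed members called higher on EtOH + RSV against control in wild type. No compressed member called in that comparison differed by more than 0.00328. Cox6b2, known as the testis form of subunit 6b, and Cox7a1, the form of subunit 7a in heart and muscle, were instead uncompressed in CAR-deficient liver only. Cox6b2 read 8.66, 8.78 and 8.79 on the control diet, 8.98, 9.61 and 9.24 on EtOH, 9.86, 9.35 and 9.45 on EtOH + EA and 9.14, 9.69 and 9.53 on EtOH + RSV. It was higher on all 9 ethanol-fed arrays than on any control, by 0.532, 0.81 and 0.708 (± 0.202), but did not pass (adjusted p = 0.34, 0.17 and 0.26, limma). Cox7a1 overlapped between all groups, from 6.28 to 7.64, and the difference of -0.53 ± 0.328 on EtOH + EA did not pass (adjusted p = 0.61).

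The test of a difference between genotypes in the response to diet called no member for EtOH against control, EtOH + EA against EtOH or EtOH + RSV against EtOH. The shares of all genes called were 2.46%, 0.176% and 0.0%, and 8, 2 and 1 members had an unadjusted p under 0.05 (8.89%, 2.22% and 1.11%, against 16.9%, 8.65% and 7.16% of all genes). The lowest adjusted p was 0.094, for Cox7a2 on EtOH, where wild type minus CAR-deficient was 0.166. As the genotypes were treated as summarised apart, this test also takes in any difference in rescaling between them. The calls in wild type and their absence in CAR-deficient liver therefore do not show that the genotypes differed.

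Genes that serve the chain without being subunits were described from fixed lists. Of 29 measured assembly factors outside the rule, 10 were uncompressed in wild type, and 3, 3 and 4 of them fell on EtOH, EtOH + EA and EtOH + RSV against control. Over all uncompressed genes the shares that fell were 11.7%, 27.8% and 31.0%, so that with so few genes the counts of these lists are descriptions and show nothing particular to them. Sco2, a copper chaperone of complex IV, was -0.408 ± 0.063 on EtOH, -0.575 on EtOH + EA and -0.744 on EtOH + RSV (adjusted p = 0.0046, 0.00023 and 6.1e-05, limma). It also fell from EtOH to EtOH + RSV (-0.336, adjusted p = 0.049, limma). Sdhaf1, which helps place the iron-sulphur clusters of complex II, was -0.514 ± 0.0885, -0.517 and -0.648 (adjusted p = 0.0074, 0.0025 and 0.00075). These differences were larger in DFW units than those of any called subunit, but units are not calibrated between probe sets. Of 12 measured carriers 6 were uncompressed and none, 2 and 2 of them fell, among them Vdac3, a pore of the outer membrane, and Cycs, cytochrome c, on EtOH + EA (-0.165 and -0.216, adjusted p = 0.003 and 0.02). Of 12 measured coenzyme Q genes 4 were uncompressed, and 1, Coq8a, fell on EtOH + EA (-0.384, adjusted p = 0.038).

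Of 12 measured genes of mitochondrial DNA upkeep and expression 5 were uncompressed, and 3 rose on EtOH + EA, where 15.2% of all uncompressed genes rose: Tfb1m, Tfb2m and the elongation factor Tefm (0.141, 0.16 and 0.374, adjusted p = 0.038, 0.05 and 0.032). None of the 5 was called on EtOH or EtOH + RSV against control. The 2 calls of this list on EtOH + RSV, Polg and Ssbp1, were lower and compressed. Among the 8 regulators, 5 were uncompressed. Ppargc1b, the coactivator PGC-1 beta, rose on EtOH, EtOH + EA and EtOH + RSV against control by 0.458, 1.2 and 1.34 (± 0.0987, adjusted p = 0.021, 4.5e-05 and 2.3e-05). It also rose from EtOH to EtOH + EA by 0.738 and to EtOH + RSV by 0.884 (adjusted p = 0.0056 and 0.01). Pprc1, a related coactivator, fell in the 3 comparisons with control, with differences of -0.413, -0.38 and -0.582 (± 0.0949, adjusted p = 0.027, 0.019 and 0.0019). Gabpa, the ETS factor whose motif was searched above, was higher on EtOH + EA (0.347, adjusted p = 0.003) and EtOH + RSV (0.194, adjusted p = 0.043). Yy1, whose motif was searched as well, was lower on EtOH + RSV (-0.332, adjusted p = 0.039) and did not pass on EtOH + EA (-0.168, adjusted p = 0.31) or EtOH (-0.15, adjusted p = 0.43). Ppargc1a, the coactivator PGC-1 alpha, was uncompressed and did not pass on EtOH, EtOH + EA or EtOH + RSV against control. Its differences were -0.129, -0.181 and 0.126 (adjusted p = 0.63, 0.42 and 0.54, limma). Nrf1, the remaining factor whose motif was searched, was compressed (SD 0.000186), so the diets could hardly be compared for it. In CAR-deficient liver no gene of these lists was called. The test of a difference between genotypes called Ttc19, an assembly factor compressed in wild type, on EtOH. Wild type minus CAR-deficient was -0.554 there (adjusted p = 0.0012, limma), which also takes in any difference in rescaling. Among the cell markers the same test called the stellate marker Dcn on EtOH (-0.402, adjusted p = 0.043, limma), where 2.46% of all genes were called. The Kupffer marker Timd4 and the hepatocyte marker Alb were called too, and both were compressed in both genotypes.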

How the data were processed

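Total RNA of 28 livers was hybridised to Affymetrix whole-genome mouse arrays. Groups were taken from the sample titles, in which wild-type arrays are marked WT. The titles of the CAR-deficient arrays give the diet and replicate number and name no genotype. The authors deposited log2 values of each probe set made by the distribution free weighted method in R, from 1 mouse per array. It shrinks or stretches the variation of every probe set, and differences are therefore relative. Gene names were those of the platform annotation given with the values. Of 45101 probe sets, 45037 were left without control probe sets and 34945 name 1 gene, and 26 were blank in the CAR-deficient arrays. Atp5k and other symbols are printed as that annotation gives them.

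limma 3.58.1 (R 4.3.3) was fitted to all probe sets, with the 4 diets of a genotype in 1 fit and all 28 arrays in 1 fit for the test of the difference between genotypes. p-values were adjusted by Benjamini-Hochberg over all probe sets at 0.05. Nothing in the labels beyond 1 mouse per array speaks of batches. A p-value sets a difference against the spread between mice within diets. That spread was pooled over the diets of the fit and moderated over all probe sets. The fit and the rank product (50 permutations) were tested on simulated data. The members and lists were chosen with earlier results of these data known. Members were named where called, uncompressed and without overlap (up to 10 in each direction), where they are core subunits or tissue forms, and where their SD was among the 5 largest or next to the limit of 0.01. Genes of other lists were named where called, up to 4 per list, and the regulators Ppargc1a and Nrf1 were added whatever their values. Shares and the table of motifs were computed in Python 3.11.15 (pandas 2.3.3, scipy 1.17.1). Depth does not apply to arrays, and their number limits the precision.

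Replicate numbers were checked as pairs. Arrays of the same number deviated together (every correlation of deviations above 0.1) in EtOH + EA against control in wild type (0.278, 0.156, 0.306 and 0.568) and in EtOH against control in CAR-deficient liver (0.33, 0.292 and 0.409), and in no other comparison. Cox7b was not analysed here.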

Additional observations from a re-analysis of the deposited data

Results flagged for a closer look

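Among the named uncompressed members and their array mean, 108 groups of 4 wild-type arrays were examined for 1 array far from the other 3 (a gap above the 95% limit of Dixon for 4 values), and 6 were found. Chance alone gives about 1 in 20 groups. Ndufs1 read 10.65 on EtOH replicate 5, against 10.46 to 10.48 on the other EtOH arrays. Ndufs3 read 11.36 on EtOH + EA replicate 1, against 11.41 to 11.42. Uqcrq read 12.15 on EtOH + EA replicate 3, against 12.21 to 12.22. Atp5k read 11.21 on EtOH + EA replicate 2, against 11.19 on each of the other arrays of that diet. Control replicate 1 was low for Cox5b (12.66, against 12.71 to 12.72) and for Atp5e (11.61, against 11.75 to 11.77). No member passed the test of a different diet response between the genotypes.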

How the results depend on the processing

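Among the 31 differences of single genes called in wild type without overlap, no alternative turned the direction. In groups without overlap, leaving out 1 array could not turn it. The fits of the 2 groups, of probe sets above the median level and of unshared probe sets kept the same differences. The direction was thus largely fixed in advance, and its keeping is no separate support. Of 379 recomputed values 306 still passed. However, 17 of the 31 differences lost their call in at least 1 alternative, 12 of them on leaving out 1 array. Cox7a2 and Ndufs3 on EtOH and Uqcrb on EtOH + EA each lost it in 9. Leaving out each array in turn, the number of members called in wild type ranged from 2 to 10 for EtOH against control (7 with all arrays), 10 to 26 for EtOH + EA against control (21), 15 to 27 for EtOH + RSV against control (26), 1 to 2 for EtOH + EA against EtOH (1), and 0 to 1 for the difference between genotypes on EtOH (0, and 1 without CAR-deficient EtOH replicate 1). It stayed at 0 for EtOH + RSV against EtOH, the 2 polyphenols, all 6 comparisons in CAR-deficient liver and the other differences between genotypes, and the compressed shares stayed at 61.1% and 30.0%. Quantile normalization gave 21 (57.1% lower, against 6 of 7), 35 (60.0% lower, against 19 of 21) and 41 (63.4% lower, against 21 of 26) members against control on EtOH, EtOH + EA and EtOH + RSV, 0 for EtOH + EA and 3 for EtOH + RSV against EtOH, 7 for the difference between genotypes on EtOH, and compressed shares of 30.0% in wild type and 11.1% in CAR-deficient liver. With only the 2 groups compared the counts were 0 on EtOH and 13 on EtOH + RSV against control and 0 for EtOH + EA against EtOH. A difference of at least 0.1 left 3, 8 and 10 against control and 0 for EtOH + EA against EtOH. The rank product called 3, 4 and 5 against control, 1 for EtOH + RSV against EtOH and 1 between the polyphenols, and 1, 2 and 1 against control in CAR-deficient liver. Probe sets above the median level gave 2 for EtOH + EA and 1 for EtOH + RSV against EtOH, the probe set of largest SD gave 3 for EtOH + EA against EtOH, and unshared probe sets gave 1 for the difference between genotypes on EtOH. Over all member probe sets 41.3% were compressed in CAR-deficient liver. The causes were not tested.

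With the replicate number as a block, 1 member was called for EtOH against control and 0 for EtOH + EA against EtOH in wild type, where the arrays share only a number. In the pairs of wild-type EtOH + EA and control the block gave 16 members against 21, and in those of CAR-deficient EtOH and control 0. It gave 24 members against 26 for EtOH + RSV against control, and each remaining comparison had 0 members called with and without it.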
